A study of Homo sapiens with 8 samples.

Results

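The genes described here are SRF, which encodes serum response factor, and 9 genes of the actin cytoskeleton it is known to control: ACTA2, ACTB, ACTG1, TAGLN, MYL9, TPM1, TPM2, VCL and CNN2. They were chosen by gene symbol, as the rows of the count matrix whose Ensembl identifiers map to these symbols. All 10 were found among the 60676 genes of the matrix. Of these 10, 8 passed the filter on low counts and were tested among 16680 genes, while MYL9 and CNN2 did not. The libraries are bulk RNA-seq of IGR-N91, a human neuroblastoma (NB) cell line derived from a stage 4 tumor, grown as cell aggregates in hanging drops. Control aggregates were kept in serum-containing culture medium that had held no tissue. The other aggregates received medium conditioned by sympathetic ganglia of E8 chick embryos (E8-cSGcm), by dorsal root ganglia of E8 chick embryos (E8-cDRGcm) or by sympathetic ganglia of E15.5 mouse embryos (E15.5-mSGcm). Each of the 4 groups had 2 libraries, and the aggregates were collected after 20 h by the labels, although the text describing the series gives a longer exposure. All groups share the same cell line. E15.5-mSGcm differs from E8-cSGcm in species and embryonic age, and from E8-cDRGcm in ganglion as well. The labels do not say whether the duplicates came from separate cultures, so the p-values measure only the spread between these libraries, which may be technical.

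SRF is a transcription factor that binds a short DNA element, the CArG box, in the control regions of genes for actin, actin-binding proteins and growth-responsive factors. Its partners of the myocardin-related family (MRTFs) are held in the cytoplasm by free actin monomers and enter the nucleus when actin polymerizes, so that the supply of actin feeds back on the transcription of actin genes. The ternary complex factors ELK1, ELK3 and ELK4 guide SRF to immediate early genes instead. In cells that are not muscle, this programme is known for its part in adhesion, contractility and migration.

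The promoter stretches around the CArG boxes are shown first, since SRF binds this element. RefSeq promoter windows on GRCh38.p14, from 250 bases before to 50 bases after each annotated start, were given for 7 of the 10 genes (SRF, ACTA2, ACTG1, TPM1, TPM2, VCL and CNN2). Capitals mark the box, that is CC, a core of A and T letters, and GG, and both strands were searched. Each sequence runs 5′ to 3′ on the strand of its gene.
SRF, box starting 30 bases before the start, chr6:43171214-43171268, plus strand: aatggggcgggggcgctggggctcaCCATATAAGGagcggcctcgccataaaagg
SRF, box starting 10 bases before the start, chr6:43171234-43171268, plus strand: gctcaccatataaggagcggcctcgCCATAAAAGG
ACTG1, box starting 94 bases before the start, chr17:81512859-81512918, minus strand: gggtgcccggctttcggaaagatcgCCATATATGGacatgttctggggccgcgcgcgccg
CNN2, box starting 89 bases before the start, chr19:1026494-1026553, plus strand: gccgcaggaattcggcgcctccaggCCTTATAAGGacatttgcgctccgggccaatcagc
ACTA2, near match starting 121 bases before the start, chr10:88952860-88952919, minus strand: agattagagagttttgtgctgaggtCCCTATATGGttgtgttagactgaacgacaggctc
ACTA2, near match starting 71 bases before the start, chr10:88952810-88952869, minus strand: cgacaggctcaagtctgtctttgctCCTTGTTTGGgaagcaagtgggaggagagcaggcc

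A full match was thus present in the windows of 3 genes, SRF, ACTG1 and CNN2. Both ACTA2 elements carry 1 letter in the core that is not A or T. Of all 35116 promoter windows of this length, 454 (1.29%) held a full match and 2854 (8.13%) held a match when 1 such letter was allowed. The windows of TPM1, TPM2 and VCL held neither, which says only that these letters do not occur in those windows. The same applies to a further window each of SRF and ACTA2. A match is a description of the sequence and not evidence of binding in these cells.

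The libraries held between 7930765 and 15060744 counts, and the E15.5-mSGcm libraries were the shallowest (7930765 and 8937397). A floor of 3 counts in a library was equal to 0.199 to 0.378 CPM (counts relative to the library's depth), and this floor covers counting error only. The spread between replicate libraries exceeded that error, since the chi-square per gene lay between 1.78 and 3.78. The noradrenergic NB markers were detected except CHGA. CHGA was listed at 0 in all 8 libraries, as were its neighbours ITPK1, MOAP1 and LYSET, so a 0 in this matrix need not mean an absent transcript. Levels below are CPM further scaled by edgeR's TMM factors. A gene was called at a Benjamini-Hochberg adjusted p under 0.05 in edgeR's quasi-likelihood test with a fold change of at least 1.5, and the words rose and fell are used for every adjusted p under 0.05, whether or not the fold was reached. In bulk libraries, fewer cells of a type and less RNA per cell cannot be told apart.

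SRF was expressed at a moderate level in every library, and its transcript fell in E15.5-mSGcm alone among the media when each was compared with control medium. The control libraries held 284 and 308 reads, the E8-cSGcm libraries 240 and 289, the E8-cDRGcm libraries 333 and 279, and the E15.5-mSGcm libraries 111 and 145. Scaled to depth, these were 21.7 and 20.3 CPM in control medium, 19.2 and 20.2 in E8-cSGcm, 24.9 and 20.4 in E8-cDRGcm, and 14.2 and 16.6 in E15.5-mSGcm. Both E15.5-mSGcm libraries lay below the other 6, while the remaining groups overlapped or nearly touched. Against control medium, SRF fell by 0.44 on the log2 scale in E15.5-mSGcm, a 1.36-fold reduction that did not reach the fold required for a call (SE 0.12, edgeR adjusted p = 0.00488). It did not pass the test in E8-cSGcm (log2 fold change -0.08, 95% interval -0.30 to 0.13, edgeR adjusted p = 0.606) or in E8-cDRGcm (0.11, interval -0.10 to 0.33, edgeR adjusted p = 0.392). The reduction in E15.5-mSGcm kept an adjusted p under 0.05 in 13 of 16 fits. It shrank to -0.24 and did not pass with GC content and length corrected for (edgeR adjusted p = 0.124, with the replicate block 0.131), and without E15.5-mSGcm library 1 it was -0.35 (edgeR adjusted p = 0.0889). Tested directly, SRF was lower in E15.5-mSGcm than in E8-cDRGcm (-0.55, SE 0.12, edgeR adjusted p = 2.54e-04) and lower than in E8-cSGcm (-0.36, SE 0.13, edgeR adjusted p = 0.0184). The latter shrank to -0.10 after the GC and length correction (edgeR adjusted p = 0.519) and did not pass with DESeq2 (adjusted p = 0.106).

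**Figure D1:**
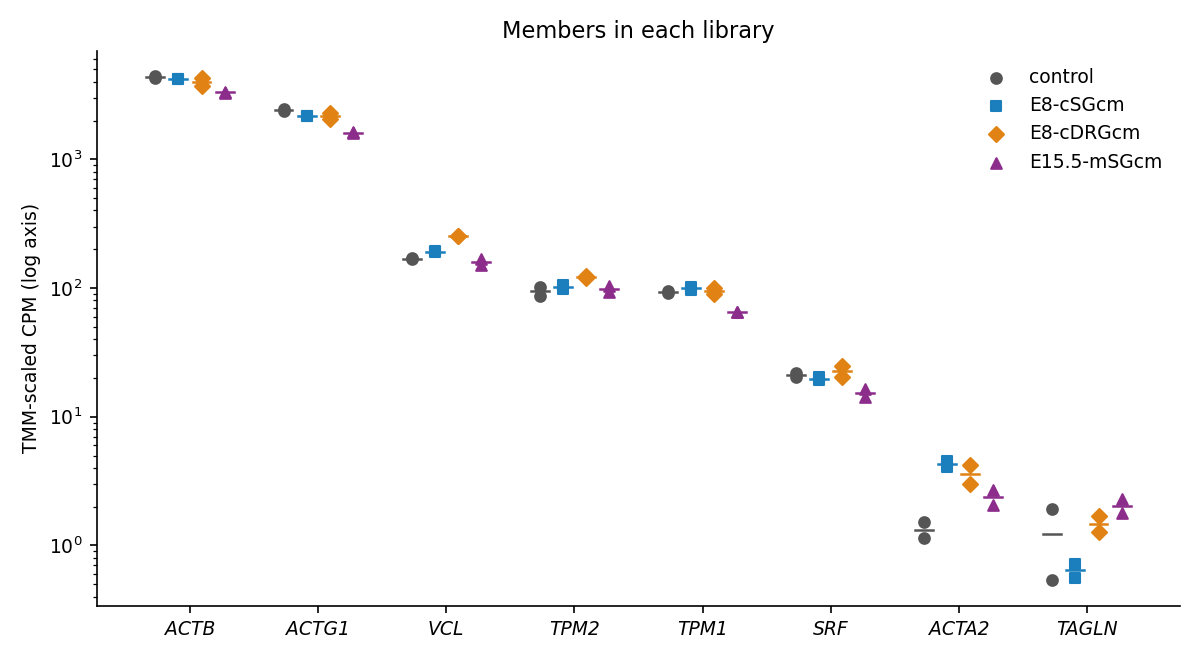
Levels of the 8 tested genes in each library, as TMM-scaled CPM on a log axis, with symbols for the 4 groups and a short line at each group mean (2 libraries a group). ACTB and ACTG1 are highest, ACTA2 and TAGLN lowest, and the 2 E15.5-mSGcm libraries lie lowest for ACTB, ACTG1, TPM1 and SRF.

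The cytoplasmic actins ACTB (beta-actin) and ACTG1 (gamma-actin), the main filament proteins of cells that are not muscle, were by far the most abundant of the 10 genes. Per kilobase of exon (RPKM, computed over the union of exons), control medium gave a mean level of 991 for ACTB and 597 for ACTG1, followed by TPM2 at 29.6, VCL at 17.0, TPM1 at 6.29 and SRF at 4.96. ACTA2, TAGLN and CNN2 had RPKM levels of 0.236, 0.186 and 0.0361. With the longest transcript as the length, TPM1 stood at 23.4, above VCL at 21.2, so the order of these 2 genes rests on the length chosen. ACTB ranked between position 6 and 10 by reads among all genes of a library and ACTG1 between position 12 and 30. Together the 10 genes took 0.715% and 0.734% of the reads in control medium, 0.691% and 0.689% in E8-cSGcm, 0.622% and 0.692% in E8-cDRGcm, and 0.524% and 0.511% in E15.5-mSGcm.

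ACTG1 fell in all 3 conditioned media, most in E15.5-mSGcm. Its levels were 2377 and 2463 CPM in control medium, 2170 and 2150 in E8-cSGcm, 2062 and 2308 in E8-cDRGcm, and 1633 and 1586 in E15.5-mSGcm. Every library exposed to a conditioned medium lay below both control libraries, and both E15.5-mSGcm libraries lay below all others. Relative to control medium its log2 fold change was -0.16 in E8-cSGcm (SE 0.05, edgeR adjusted p = 0.0110), -0.15 in E8-cDRGcm (SE 0.05, edgeR adjusted p = 0.0139) and -0.59 in E15.5-mSGcm (SE 0.05, edgeR adjusted p = 5.23e-12). The reduction in E15.5-mSGcm was 1.504-fold and the only one of them that was called. It lay so near the required fold that 9 of the alternative fits placed it just under, at log2 fold changes from -0.58 to -0.51, each with an adjusted p of at most 2.58e-08. The small reductions in the chick media were less firm: in E8-cSGcm 14 of 16 fits passed, and in E8-cDRGcm 12 of 16, where the value was -0.09 after the GC and length correction (edgeR adjusted p = 0.113) and -0.07 without E8-cDRGcm library 1 (edgeR adjusted p = 0.284).

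ACTB fell in E15.5-mSGcm by less than the fold required for a call. It stood at 4298 and 4435 CPM in control medium, 4222 and 4169 in E8-cSGcm, 3731 and 4283 in E8-cDRGcm, and 3345 and 3290 in E15.5-mSGcm. The E15.5-mSGcm libraries were again below all others. The reduction there was 1.32-fold (log2 fold change -0.40, SE 0.05, edgeR adjusted p = 1.15e-07). In E8-cDRGcm the log2 fold change was -0.12 (edgeR adjusted p = 0.0470), which passed in 5 of 16 fits and not with the replicate block (edgeR adjusted p = 0.0704), and in E8-cSGcm it was -0.06 (95% interval -0.16 to 0.05, edgeR adjusted p = 0.439). ACTB and ACTG1 have processed copies in the genome that can share their reads: 12 annotated ACTB pseudogenes held 366 to 1006 reads a library and 21 ACTG1 pseudogenes 111 to 290, which leaves the exact level of each gene uncertain.

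The balance of the cytoplasmic actins differed between the groups by amounts small beside the levels themselves. ACTB reads were 1.81 and 1.80 times ACTG1 reads in control medium, 1.95 and 1.94 times in E8-cSGcm, 1.81 and 1.86 times in E8-cDRGcm, and 2.05 and 2.07 times in E15.5-mSGcm. The E8-cSGcm and E15.5-mSGcm libraries lay above both control libraries, while 1 of the E8-cDRGcm libraries was level with them. These ratios were not tested and are a description.

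**Figure D2:**
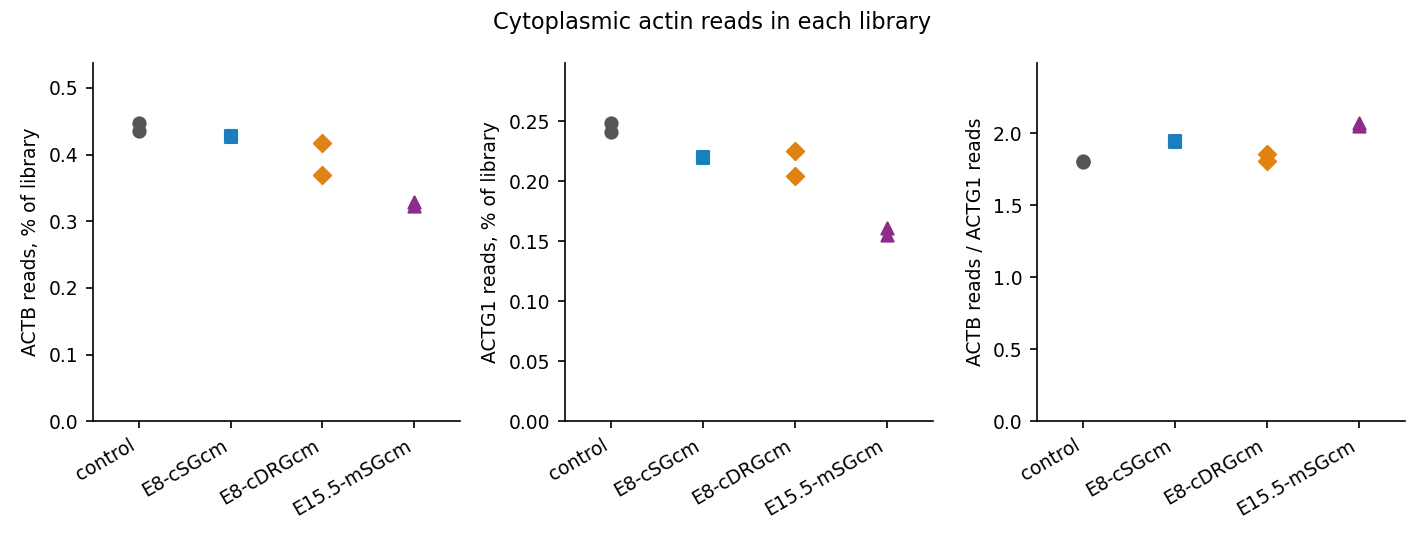
Reads of ACTB (left) and ACTG1 (middle) as a percentage of all counts in a library, and the ratio of ACTB to ACTG1 reads (right), for the 2 libraries of each group, with each axis starting at 0. The E15.5-mSGcm libraries hold the smallest shares of both actins and the highest ratios, 2.05 and 2.07.

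ACTA2, the alpha-actin of smooth muscle and of contractile fibroblasts, behaved unlike the cytoplasmic actins. It had few reads, 15 and 23 in control medium, and was upregulated in both chick media, with 57 and 58 reads in E8-cSGcm and 40 and 58 in E8-cDRGcm. The E15.5-mSGcm libraries held 21 and 18 reads in less depth. In CPM the control libraries were at 1.15 and 1.51, those in E15.5-mSGcm at 2.69 and 2.06, those in E8-cDRGcm at 2.99 and 4.25, and those in E8-cSGcm at 4.57 and 4.06. All 6 libraries exposed to conditioned media lay above both controls, and of the neighbours in this order only E8-cDRGcm and E8-cSGcm overlapped. ACTA2 rose 3.19-fold in E8-cSGcm (log2 fold change 1.67, SE 0.28, edgeR adjusted p = 1.42e-05) and 2.69-fold in E8-cDRGcm (1.43, SE 0.29, edgeR adjusted p = 9.47e-05), and both calls were kept in all 16 fits. In E15.5-mSGcm the log2 fold change was 0.81 (95% interval 0.09 to 1.53), which did not pass the adjustment (edgeR adjusted p = 0.0689). The difference between E8-cDRGcm and E8-cSGcm did not pass either (-0.25, interval -0.73 to 0.23, edgeR adjusted p = 0.472).

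ACTA2 overlaps FAS, STAMBPL1 and the lncRNA ACTA2-AS1, which lie on the opposite strand, and the strand setting of the counting is not stated, so their reads cannot be told apart for certain. STAMBPL1 had 154 and 172 reads in control medium against 120 and 144 in E8-cSGcm and 190 and 157 in E8-cDRGcm. FAS had 7 and 14 reads in control medium, 12 and 14 in E8-cSGcm, and 17 and 15 in E8-cDRGcm. ACTA2-AS1 had between 1 and 4 reads in every library. In E15.5-mSGcm STAMBPL1 had 88 and 101 reads and FAS 13 and 6. Such totals do not show how many reads fall in shared sequence, so the part of these genes in the ACTA2 counts was not tested.

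The tropomyosins, which wind along actin filaments and set which proteins can bind them, changed in different media. TPM1 stood at 90.8 and 94.1 CPM in control medium, 96.9 and 102 in E8-cSGcm, 90.0 and 99.3 in E8-cDRGcm, and 65.2 in both E15.5-mSGcm libraries. Only the E15.5-mSGcm libraries stood apart, below all others, and there TPM1 fell by 0.50 on the log2 scale, or 1.42-fold (SE 0.07, edgeR adjusted p = 1.55e-07). In the chick media its log2 fold changes were 0.11 (95% interval -0.02 to 0.23, edgeR adjusted p = 0.191) in E8-cSGcm and 0.03 (interval -0.09 to 0.16, edgeR adjusted p = 0.680) in E8-cDRGcm. TPM2 stood at 102 and 86.7 CPM in control medium, 98.9 and 106 in E8-cSGcm, 124 and 120 in E8-cDRGcm, and 92.4 and 103 in E15.5-mSGcm. Here the E8-cDRGcm libraries stood apart, above all others, and TPM2 rose 1.30-fold (log2 fold change 0.38, SE 0.07, edgeR adjusted p = 1.07e-05). It did not pass the test in E8-cSGcm (0.13, interval -0.01 to 0.26, edgeR adjusted p = 0.144) or in E15.5-mSGcm (0.06, interval -0.08 to 0.20, edgeR adjusted p = 0.554). None of these changes reached the fold required for a call.

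VCL encodes vinculin, which couples actin filaments to integrin and cadherin adhesions. Its level was 171 and 167.5 CPM in control medium, 194 and 190 in E8-cSGcm, 253 and 254 in E8-cDRGcm, and 166.8 and 152 in E15.5-mSGcm. The chick media lay above control medium without overlap, E8-cDRGcm highest, and the E15.5-mSGcm libraries lay just under the control libraries. VCL rose by 0.58 on the log2 scale in E8-cDRGcm (SE 0.05, edgeR adjusted p = 4.79e-12), a fold of 1.496 that fell just short of a call, and by 0.18 in E8-cSGcm (SE 0.05, edgeR adjusted p = 0.00685), the latter not without control library 2 (edgeR adjusted p = 0.0913). The rise in E8-cDRGcm passed the adjusted p in all 16 fits and became a call without control library 1 (log2 fold change 0.60). The value in E15.5-mSGcm was -0.09 (95% interval -0.20 to 0.02, edgeR adjusted p = 0.212). VCL overlaps AP3M1 on the opposite strand, which had 1048 and 933 reads in E8-cDRGcm and 1063 and 1303 in control medium. The part of such reads in the VCL counts was not tested.

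TAGLN, MYL9 and CNN2, whose products belong to the contractile apparatus of smooth muscle and motile cells, were close to the limit of detection or, for MYL9, listed at 0. TAGLN, which encodes the actin-bundling protein transgelin, had 7 and 29 reads in control medium, 9 and 8 in E8-cSGcm, 17 and 23 in E8-cDRGcm, and 14 and 20 in E15.5-mSGcm. The control libraries, at 0.535 and 1.91 CPM, spanned the values of both chick media, so the direction against control medium depended on 1 library. The log2 fold changes were -0.98 in E8-cSGcm (95% interval -1.98 to 0.03, edgeR adjusted p = 0.136), 0.23 in E8-cDRGcm (interval -0.62 to 1.07, edgeR adjusted p = 0.680) and 0.70 in E15.5-mSGcm (interval -0.18 to 1.57, edgeR adjusted p = 0.214). Without control library 2 they were 0.24, 1.45 and 1.91, the last 2 past the threshold (edgeR adjusted p = 0.0480 and 0.0118). Without control library 1 the value in E8-cDRGcm was -0.36 and that in E8-cSGcm was -1.57, the latter past the threshold (edgeR adjusted p = 0.0138). TAGLN overlaps PCSK7 on the opposite strand, which had 268 to 550 reads a library.

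MYL9, a regulatory light chain of myosin II, was listed at 0 in all 8 libraries. The floor of 0.199 to 0.378 CPM covers counting error only, and a 0 in this matrix need not mean an absent transcript, so no upper level is given. Of the 6 nearest protein-coding genes, 5 had 841 to 9612 reads over the 8 libraries and the other, a read-through of 2 of them, had 0. ACTN4, an actin crosslinker of most cells, was listed at 0 as well, but there the neighbours EIF3K and CAPN12 were also at 0. CNN2, a calponin, had 0 and 4 reads in control medium, 1 and 4 in E8-cSGcm, 6 and 10 in E8-cDRGcm, and 0 in both E15.5-mSGcm libraries. Its reads were highest in E8-cDRGcm, where the lower library still exceeded every library of the other groups, at counts below the filter for the main test.

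**Figure D3:**
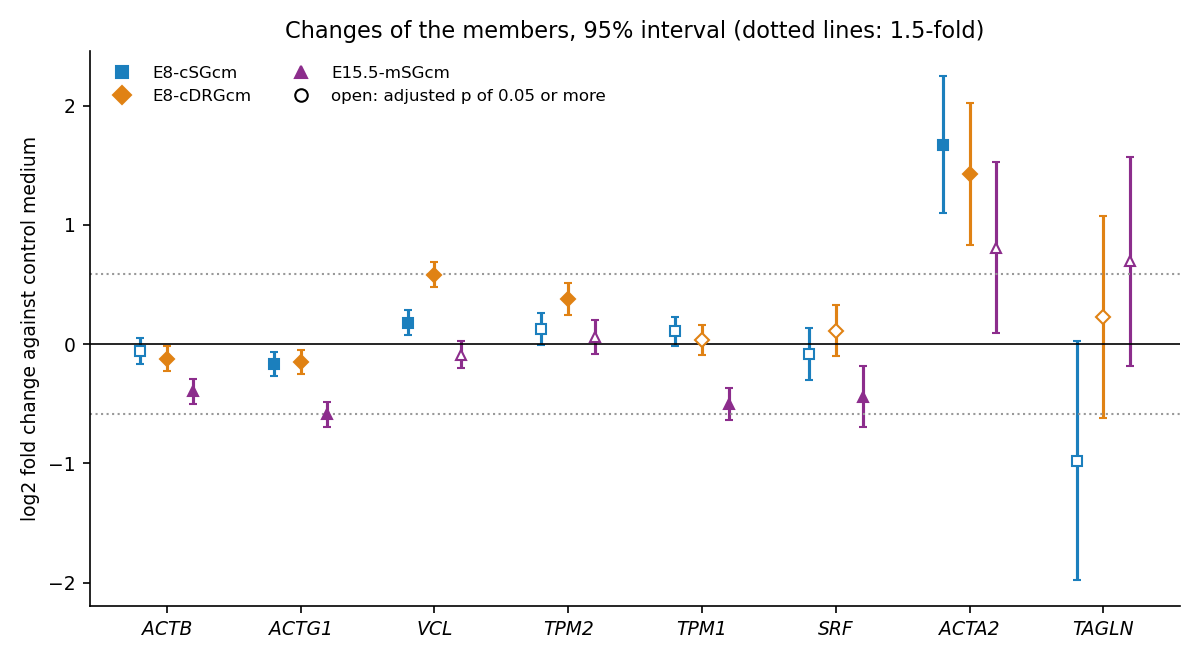
Log2 fold changes of the 8 tested genes against control medium in the 3 conditioned media, with 95% intervals. Filled symbols mark an edgeR adjusted p under 0.05, the dotted lines a fold of 1.5. ACTA2 rose in both chick media (1.67 and 1.43), VCL rose in both chick media and TPM2 in E8-cDRGcm, ACTG1 fell in all 3 media, and SRF, ACTB and TPM1 fell in E15.5-mSGcm.

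Counted over the 8 tested genes, E8-cSGcm called 1 higher (ACTA2) and 0 lower, beside 4.73% and 3.86% of all 16680 tested genes. By adjusted p alone 2 rose and 1 fell, against 16.1% and 15.2% of all tested genes. In E8-cDRGcm 1 was called higher (ACTA2) and 0 lower, beside 9.81% and 10.9% of all tested genes, and by adjusted p alone 3 rose and 2 fell, against 24.8% and 24.7%. In E15.5-mSGcm 0 were called higher and 1 lower (ACTG1), beside 6.65% and 7.27%, and by adjusted p alone 0 rose and 4 fell (SRF, ACTB, ACTG1 and TPM1), against 17.8% and 20.0%. The median log2 fold change of the 8 genes was 0.02, 0.17 and -0.24 in E8-cSGcm, E8-cDRGcm and E15.5-mSGcm, and that of all tested genes was 0.01, 0.01 and -0.02. The 3 comparisons share the control libraries. A single call among 8 genes is already a larger share than each of these backgrounds by fold, so little can be read from counts of 0 and 1.

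The media were also compared with each other. Between E8-cDRGcm and E8-cSGcm no member was called (0 higher and 0 lower, beside 2.62% and 4.87% of all tested genes). By adjusted p alone 2 were higher in E8-cDRGcm, against 14.7% of all tested genes, and the other 6 did not pass. The 2 were VCL (log2 difference 0.40, SE 0.05, edgeR adjusted p = 1.14e-07) and TPM2 (0.25, SE 0.07, edgeR adjusted p = 0.00358). TAGLN had the largest difference here, 1.21, and did not pass (95% interval 0.22 to 2.19, edgeR adjusted p = 0.0571), although it did in 6 of 15 fits.

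E15.5-mSGcm differed from both chick media by lower levels of most members. Against E8-cSGcm, 1 was called higher (TAGLN) and 2 lower (ACTA2 and TPM1), beside 10.2% and 12.1% of all tested genes, and by adjusted p alone 1 was higher and 6 lower, against 23.9% and 25.9%. TPM1 was 1.53-fold lower (log2 difference -0.61, SE 0.07, edgeR adjusted p = 1.28e-09) and ACTA2 1.82-fold lower (-0.87, SE 0.29, edgeR adjusted p = 0.0118). The ACTA2 difference did not pass with DESeq2 (adjusted p = 0.0837). TAGLN was 3.19-fold higher (1.67, SE 0.50, edgeR adjusted p = 0.00512). Against E8-cDRGcm, 0 were called higher and 1 lower (VCL), beside 13.1% in each direction, and by adjusted p alone 0 were higher and 6 lower, against 25.8% and 26.8%. VCL was 1.59-fold lower (-0.67, SE 0.05, edgeR adjusted p = 2.56e-13). The other 5 were SRF, ACTB, ACTG1, TPM1 and TPM2, at log2 differences from -0.55 to -0.27. With GC content and length corrected for, 3 of the 8 were called lower in E15.5-mSGcm than in E8-cDRGcm in place of 1.

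The tested partners of SRF changed by less than the fold required for a call in every medium against control medium. MRTFA, which senses actin monomers, had 303 and 434 reads in control medium, 323 and 366 in E8-cSGcm, 400 and 400 in E8-cDRGcm, and 250 and 283 in E15.5-mSGcm. Relative to depth it rose in E15.5-mSGcm (log2 fold change 0.31, SE 0.10, edgeR adjusted p = 0.0142), the medium in which SRF itself fell. MRTFB, its close relative, had 517 and 673 reads in control medium, 423 and 442 in E8-cSGcm, 448 and 445 in E8-cDRGcm, and 293 and 344 in E15.5-mSGcm. It fell in both chick media, by 0.37 in E8-cSGcm (edgeR adjusted p = 5.52e-04) and by 0.35 in E8-cDRGcm (edgeR adjusted p = 6.47e-04). Of the 6 cofactors 5 were tested and 0 were called in any medium, beside 3.86% to 10.9% of all tested genes in either direction. By adjusted p alone 0 rose and 1 fell in E8-cSGcm, against 16.1% and 15.2% of all tested genes. In E8-cDRGcm 2 rose and 1 fell, against 24.8% and 24.7%. In E15.5-mSGcm 3 rose and 0 fell, against 17.8% and 20.0%. The others that rose, named after their values were seen, were the ternary complex factors ELK1 and ELK4 in E8-cDRGcm (0.20 and 0.46) and ELK3 and ELK4 in E15.5-mSGcm (0.32 and 0.47). MYOCD, the cofactor of heart and smooth muscle, was listed at 0 in every library.

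Among other contractile and adhesion genes linked to SRF, 27 of 28 were tested. In E8-cSGcm 0 were called, beside 4.73% of all tested genes called higher and 3.86% called lower. By adjusted p alone 9 rose and 6 fell there, against 16.1% and 15.2%. In E8-cDRGcm 3 were called higher and 0 lower, beside 9.81% and 10.9% of all tested genes. By adjusted p alone 13 rose and 5 fell there, against 24.8% and 24.7%. In E15.5-mSGcm 3 were called higher and 4 lower, beside 6.65% and 7.27%. By adjusted p alone 8 rose and 9 fell there, against 17.8% and 20.0%. The median log2 fold changes were 0.10, 0.22 and 0.01. Those called in E8-cDRGcm included the adhesion proteins ZYX (0.84) and PDLIM7 (0.83), named after their values were seen.

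The largest changes of this list were in E15.5-mSGcm and went both ways. CNN1, the calponin of smooth muscle, had 17 and 19 reads in control medium, 16 and 24 in E8-cSGcm, 19 and 29 in E8-cDRGcm, and 2 and 1 in E15.5-mSGcm, where it fell (edgeR adjusted p = 0.00161), at counts under the limit of detection that give no reliable fold. MYLK, the kinase that activates myosin II by phosphorylating its light chain, had 178 and 285 reads in control medium against 32 and 59 in E15.5-mSGcm (log2 fold change -1.57, SE 0.19, edgeR adjusted p = 4.06e-08). FILIP1L had 39 and 38 reads in control medium against 81 and 83 in E15.5-mSGcm (1.86, SE 0.22, edgeR adjusted p = 8.27e-09). In these 3 genes the E15.5-mSGcm libraries did not overlap any other group.

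Of the other actin isoforms, only ACTA1, the actin of skeletal muscle, could be tested. It had 17 and 12 reads in control medium and 2 and 3 in E15.5-mSGcm, a fall that passed the test (edgeR adjusted p = 0.0321) at counts no higher than the limit of detection. ACTC1 was listed at 0 and ACTG2 at no more than 1 read.

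Listed next were 11 proteins that manage the monomer pool and filament ends. By adjusted p alone, transcripts of most of them were lower in the mouse medium than in each chick medium. All 11 were tested, and by adjusted p alone 10 were lower and 0 higher in E15.5-mSGcm than in E8-cSGcm, beside 25.9% of all tested genes lower and 23.9% higher. Against E8-cDRGcm 9 were lower and 0 higher, beside 26.8% of all tested genes lower and 25.8% higher. With the fold of 1.5 as well, 2 were called lower and 0 higher against each chick medium. Beside these stood 12.1% of all tested genes lower and 10.2% higher against E8-cSGcm, and 13.1% in each direction against E8-cDRGcm. The alternative fits were examined for the members only, so how this list depends on the processing was not tested. The comparisons with control medium gave fewer changes. In E8-cSGcm 1 was called higher and 0 lower, beside 4.73% and 3.86% of all tested genes. By adjusted p alone 5 rose and 0 fell there, against 16.1% and 15.2%. In E8-cDRGcm 1 was called higher and 0 lower, beside 9.81% and 10.9%, with 6 rising and 0 falling, against 24.8% and 24.7%. In E15.5-mSGcm 0 were called higher and 1 lower, beside 6.65% and 7.27%, with 0 rising and 4 falling, against 17.8% and 20.0%. GSN, a filament-severing protein, had 124 and 165 reads in control medium and 235 and 271 in E8-cSGcm (log2 fold change 0.89, SE 0.12, edgeR adjusted p = 2.81e-07). VASP, which speeds filament growth at barbed ends, had 803 and 981 reads in control medium and 1401 and 1414 in E8-cDRGcm (0.73, SE 0.06, edgeR adjusted p = 1.27e-12). TMSB10, a thymosin that binds actin monomers, had 5078 and 5291 reads in control medium and 1929 and 2120 in E15.5-mSGcm (-0.59, SE 0.06, edgeR adjusted p = 6.16e-08), and it rose in both chick media (0.37 and 0.23).

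The immediate early genes, which are the growth-responsive branch of SRF targets, changed in both directions against control medium in E8-cSGcm and E15.5-mSGcm. Of 9 listed 8 were tested. By adjusted p alone 1 rose and 4 fell in E8-cSGcm, against 16.1% and 15.2% of all tested genes. In E8-cDRGcm 2 rose and 0 fell, against 24.8% and 24.7%, and in E15.5-mSGcm 2 rose and 3 fell, against 17.8% and 20.0%. Between the chick media, all 8 had a log2 difference above 0 in E8-cDRGcm against E8-cSGcm (median 0.44), and by adjusted p alone 5 were higher and 0 lower, beside 14.7% of all tested genes higher. With the fold of 1.5 as well, 2 were called higher there, beside 2.62% of all tested genes. Against control medium 0 were called higher and 1 lower in E8-cSGcm, beside 4.73% and 3.86% of all tested genes. In E8-cDRGcm 2 were called higher and 0 lower, beside 9.81% and 10.9%, and in E15.5-mSGcm 1 higher and 1 lower, beside 6.65% and 7.27%. FOS had 27 and 20 reads in control medium and 44 and 67 in E8-cDRGcm (log2 fold change 1.30, SE 0.28, edgeR adjusted p = 2.05e-04). NR4A1 had 394 and 435 reads in control medium and 619 and 676 in E8-cDRGcm (0.71, SE 0.08, edgeR adjusted p = 2.73e-09). EGR1 had 119 and 107 reads in control medium against 50 and 54 in E8-cSGcm (-1.04, SE 0.19, edgeR adjusted p = 4.34e-05) and 40 and 41 in E15.5-mSGcm (-0.71, SE 0.20, edgeR adjusted p = 0.00527). The gene called higher in E15.5-mSGcm, named after its value was seen, was JUNB (0.69). CCN1, a matricellular protein shared between SRF and YAP/TAZ targets, had 14 and 12 reads in control medium, 36 and 25 in E8-cSGcm, 33 and 35 in E8-cDRGcm, and 3 and 4 in E15.5-mSGcm. It was called higher in both chick media (1.31 and 1.44, edgeR adjusted p = 0.00521 and 9.04e-04), as ACTA2 was, and did not pass the test in E15.5-mSGcm (-1.10, 95% interval -2.31 to 0.10). CCN2 and ANKRD1, the other listed genes of that kind, had at most 1 read in any library.

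**Figure D4:**
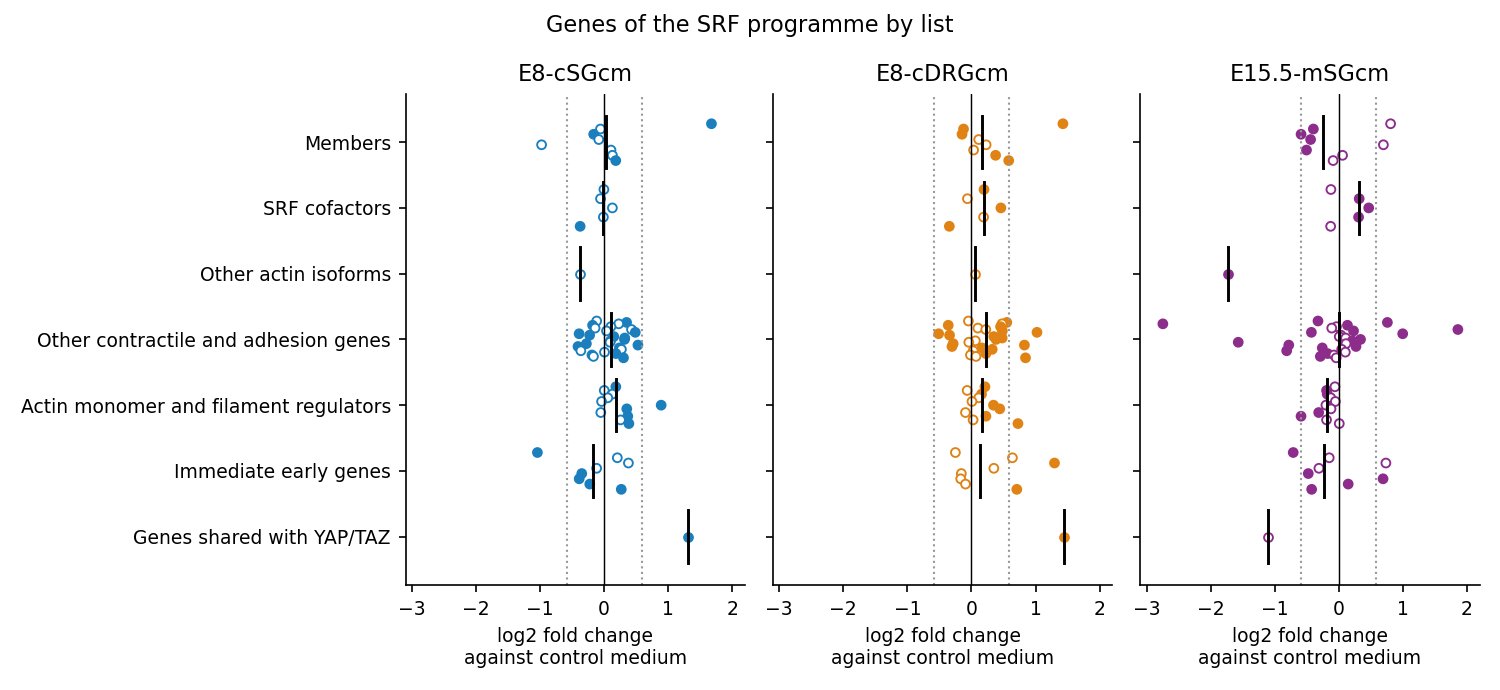
Log2 fold changes against control medium of the tested genes of the lists described, one panel for each conditioned medium. Each point is a gene, filled where the edgeR adjusted p was under 0.05, the vertical bar is the median of the list, and the dotted lines mark a fold of 1.5. The median of the actin monomer and filament regulators lies above 0 in the chick media and below 0 in E15.5-mSGcm.

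Across the 8 libraries, the genes whose log2 CPM followed SRF most closely were PCLAF (Pearson's r 0.975), PSMC3 (0.969) and the antisense transcript TROAP-AS1 (0.968). Those closest to ACTA2 were VASH2 (0.974), FAM229B (0.974) and CCDC126 (0.965). Among the tested members the closest pair was ACTB and ACTG1 (0.974), ACTB also followed TPM1 (0.915), and SRF and ACTA2 had an r of -0.02. The points are the libraries of all 4 groups, of which the duplicates share their medium, so these values are descriptions.

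Markers of other cell types were read in the same libraries. Of the 8 smooth muscle markers, MYH11 and MYOCD were at 0 in every library and 4 in all had at most 3 reads in any library. The summed level of that list was 736 to 766 CPM in control medium, 509 to 547 in E8-cSGcm, 452 to 470 in E8-cDRGcm and 932 to 971 in E15.5-mSGcm. Nearly all of that sum was SYNPO2, singled out after its values were seen. Of the 8 markers, 4 were tested. In E8-cSGcm 1 was called higher and 0 lower (median log2 fold change 0.30), beside 4.73% and 3.86% of all tested genes. In E8-cDRGcm 2 were called higher and 1 lower (median 0.75), beside 9.81% and 10.9%. In E15.5-mSGcm 0 were called higher and 1 lower (median -0.08), beside 6.65% and 7.27%. LMOD1, a nucleator of smooth muscle actin, was called higher in both chick media (log2 fold changes 1.45 and 1.37) on few reads. It had 9 and 9 reads in control medium, 18 and 29 in E8-cSGcm, and 19 and 26 in E8-cDRGcm. SMTN, which encodes the smooth muscle protein smoothelin, was called higher in E8-cDRGcm (1.02) and rose without reaching the fold in E8-cSGcm (0.37). LMOD1 and SMTN were likewise singled out after their values were seen. SYNPO2 went the other way, from a mean of 725 CPM in control medium to 494 in E8-cSGcm and 409 in E8-cDRGcm. CNN1 did not pass the test in E8-cSGcm or E8-cDRGcm (edgeR adjusted p = 0.703 and 0.293). The Schwann cell markers SOX10 and FOXD3 were at 0 in every library. Their list summed to 1.12 to 1.45 CPM in control medium, 2.25 to 2.45 in E8-cSGcm, 2.47 to 4.10 in E8-cDRGcm and 2.43 to 3.31 in E15.5-mSGcm, mostly from ERBB3. The endothelial markers found in the matrix summed to at most 1.07 CPM in any library.

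The 8 fibroblast markers were all tested and summed to 551 to 555 CPM in control medium and 563 to 567 in E15.5-mSGcm. In E15.5-mSGcm 4 were called higher and 2 lower, beside 6.65% and 7.27% of all tested genes. Their log2 fold changes there ran from -1.82 to 3.65, so the near-equal sums hide changes in both directions. In E8-cSGcm the fibroblast markers summed to 566 to 572 CPM and in E8-cDRGcm to 542 to 569. In E8-cSGcm 0 were called higher and 0 lower, beside 4.73% and 3.86% of all tested genes. In E8-cDRGcm 0 were called higher and 1 lower, beside 9.81% and 10.9%. The noradrenergic markers summed to 6682 to 6833 CPM in control medium, 5171 to 5484 in E8-cSGcm, 3980 to 4063 in E8-cDRGcm and 4147 to 4316 in E15.5-mSGcm. Most of each sum was MYCN, singled out after its values were seen. Its means were 4645 CPM in control medium, 3402 in E8-cSGcm, 2496 in E8-cDRGcm and 2638 in E15.5-mSGcm. The sum thus says little about the other markers of the list. Of the 9 tested noradrenergic markers, by adjusted p alone, 0 rose and 6 fell in E8-cSGcm, beside 15.2% of all tested genes falling. In E8-cDRGcm 0 rose and 8 fell, beside 24.7% of all tested genes falling. In E15.5-mSGcm 1 rose and 7 fell, beside 17.8% of all tested genes rising and 20.0% falling. The part of these marker changes in the changes of the actin genes was not tested.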

How the data were processed

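RNA of IGR-N91 aggregates was sequenced as 8 libraries of a stranded total RNA kit on a NextSeq500. The submitters' processing notes name bcl2fastq 2.17.1.14, cutadapt 1.9.1, TopHat2 2.1.0 and HTSeq 0.11.3, and the deposited values are raw counts per Ensembl gene, which the authors neither normalized nor filtered. The paper names hg19 and the notes hg38/GRCh38, and the strand setting is not given in the sources used here. No coordinates of the counted genes are therefore printed. Symbols, lengths and GC content came from GENCODE release 44 on GRCh37 (58611 of 60676 identifiers matched, 500 unmatched ones with counts, 0.511% of all counts), and promoters from RefSeq on GRCh38.p14. PECAM1 had no match.

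Groups followed the labels. Counts were TMM-normalized, filtered by filterByExpr and tested in 1 model of the 8 libraries with edgeR 4.0.16 (limma 3.58.1, R 4.3.3), robust quasi-likelihood, Benjamini-Hochberg adjustment over 16680 genes. Standard errors and 95% intervals were derived from the F statistic. A call needed an adjusted p under 0.05 and a fold of at least 1.5. Total counts of 7930765 to 15060744 put the floor of 3 counts at 0.199 to 0.378 CPM. The steps were tested on simulated data. Alternatives were DESeq2 1.42.0, RLE factors, fits of only the libraries compared, filters at 1 count in total or 10 in every library, a call without the fold, the replicate block, a GC and length correction by splines with 5 degrees of freedom with and without the block, each library left out, another length for RPKM and 1 mismatch in the CArG core. Replicate numbers come from the titles. Named were all members, MRTFA and MRTFB, and from each other list at most the 3 called genes with the largest change against control medium, and for SRF and ACTA2 the 3 most correlated genes over 8 libraries (log2 CPM, prior count 2). Genes called or changed that were named beyond this rule are marked in the text as chosen after their values were seen. The members and lists were chosen with earlier results of these data known. Some items are not reported here. Figures used matplotlib 3.10.9.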

Additional observations from a re-analysis of the deposited data

Results flagged for a closer look

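Differences between media, each from edgeR's quasi-likelihood test of the difference itself, singled out 4 results. In E15.5-mSGcm against E8-cSGcm, ACTA2 had a log2 difference of -0.87, TAGLN of 1.67 and TPM1 of -0.61. In E15.5-mSGcm against E8-cDRGcm, VCL had a log2 difference of -0.67. The edgeR adjusted p were 0.0118, 0.00512, 1.28e-09 and 2.56e-13. TAGLN rested on 9 and 8 reads in E8-cSGcm against 14 and 20 in E15.5-mSGcm. Groups of 2 libraries cannot be tested for outlying samples.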

How the results depend on the processing

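Of 809 member comparisons under alternatives, 744 kept their direction and their side of the call, 39 became calls, 14 lost the call and 12 changed sign. Most comparisons were not calls in the main fit, and only a main call can be lost. The 14 are therefore not a share of 809, and most of them were ACTG1 in E15.5-mSGcm against control medium. Of the 39, 20 came from adjusted p alone, a setting that can only add calls. All fits draw on the same 8 libraries, so these comparisons are not independent. Adjusted p alone gave 2 higher and 1 lower in E8-cSGcm, 3 and 2 in E8-cDRGcm, and 4 lower in E15.5-mSGcm, against control medium, and 2 higher in E8-cDRGcm against E8-cSGcm, and 6 lower in E15.5-mSGcm against each chick medium. The call of ACTG1 in E15.5-mSGcm (1 lower) became 0 with DESeq2, RLE factors, the filter at 10 counts, only the libraries compared, and the GC and length correction with or without the replicate block. TAGLN became 1 call higher in E8-cDRGcm than in E8-cSGcm with only the libraries compared, with the replicate block (log2 difference 1.21, edgeR adjusted p = 0.0488), and with the GC and length correction with or without the block. In E15.5-mSGcm against E8-cSGcm, DESeq2 called 1 lower and the filter at 10 counts 0 higher, since it drops TAGLN. In E15.5-mSGcm against E8-cDRGcm, the filter at 1 count called 4 lower (CNN2, tested only there, among them), the GC and length correction 3, and that correction with the block 2. Leaving out each library in turn gave, against control medium, 1 higher and 0 to 1 lower in E8-cSGcm, 1 to 2 higher and 0 lower in E8-cDRGcm, and 0 to 1 higher and 0 to 1 lower in E15.5-mSGcm. Between media it gave 0 to 1 higher in E8-cDRGcm against E8-cSGcm, 0 to 1 higher and 1 to 2 lower in E15.5-mSGcm against E8-cSGcm, and 1 to 3 lower against E8-cDRGcm. ACTG1 lost its call without control library 2, without E8-cDRGcm library 1 or without E15.5-mSGcm library 2. ACTA2 lost its call against E8-cSGcm without E8-cSGcm library 1 (edgeR adjusted p = 0.0516) or without E15.5-mSGcm library 2 (0.139), TAGLN without E15.5-mSGcm library 2 (0.0706), and TPM1 without E8-cSGcm library 2 (log2 difference -0.58). Against E8-cDRGcm, SRF, TPM1 and ACTA2 became calls in E15.5-mSGcm under some of these settings. A group left with 1 library was assumed to vary like the others. Some signs changed when libraries were left out in turn. Against control medium, TAGLN ranged from -1.57 to 0.24 in E8-cSGcm and from -0.36 to 1.45 in E8-cDRGcm, the sign turning without control library 2 and 1, respectively, SRF in E8-cDRGcm from -0.039 to 0.25, TPM1 in E8-cDRGcm from -0.037 to 0.099, and TPM2 in E15.5-mSGcm from -0.063 to 0.17 (-0.032 without E15.5-mSGcm library 2). In E8-cDRGcm against E8-cSGcm, ACTB ranged from -0.17 to 0.032 and ACTG1 from -0.067 to 0.097. With the GC and length correction, ACTB in that comparison was 0.032 (with the block 0.031), and TPM2 in E15.5-mSGcm against E8-cSGcm was 0.063 (with the block 0.064). None of the fits with a changed sign passed the test, and the cause was not tested. Same-numbered libraries showed no large shared deviation (r of -0.0437 to 0.0420 across genes). This cannot decide whether the numbers pair them, since a small shared effect could go unseen. The replicate block changed no other call. By adjusted p alone, it also ended the change of ACTB in E8-cDRGcm (edgeR adjusted p = 0.0704). Few reads limit TAGLN and CNN2, and why MYL9 was listed at 0 was not tested.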
